A study of Rattus norvegicus with 4 samples.

Results

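The genes described here make and use the machinery that folds proteins and destroys them: the subunits of the proteasome, the enzymes that attach and remove ubiquitin, and the chaperones. They were chosen by spelling, as probes whose single gene symbol began with Psma to Psmg and a digit, Ube2, Usp and a digit, Uchl, Cct and a digit, Hsp or Dnaj. The rule took 252 probes of 175 genes, out of 16677 probes with 1 symbol and 35126 probes on the array. Values could be read for 223 of these probes (161 genes), 113 at their own place in the table and 110 at a place moved by 5 table rows. The other 29 probes lie in a stretch of the table where names and values could not be paired, and 14 genes, Hspa8, Psmb4, Psmb9, Psmc4 and Psme2 among them, were covered only there. Of the 223 probes, 179 (144 genes) passed the filter on dim probes and were tested.

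Rat vestibular ganglion neurons, which carry signals from the balance organs of the inner ear, were captured by laser from tissue immunostained for calretinin, a calcium-binding protein. The 2 arrays of calretinin-positive cells hold afferents with calyx endings, and the 2 arrays of calretinin-negative cells hold dimorphic and bouton afferents. The captured cells were pooled, total RNA was labelled with Cy5, and the sources used here give no strain, age or number of animals. Groups were taken from the sample titles; the longer descriptions call all 4 samples positive.

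The proteasome is a barrel of stacked rings, the 20S core, whose inner beta subunits cut proteins, capped by a 19S particle that recognises, unfolds and feeds in proteins tagged with ubiquitin. Ubiquitin passes from an activating E1 enzyme to a conjugating E2 enzyme and, with an E3 ligase, onto the target protein; deubiquitinases such as the Usp and Uchl enzymes take it off again. HSP70 and HSP90 chaperones, with their J-protein helpers, and the ring-shaped TRiC complex (Cct) fold proteins before they need to be destroyed. Neurons with long axons depend on both systems, and the deubiquitinase UCHL1 is one of the abundant proteins of neurons.

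The promoters of 4 genes are shown because they hold a motif of the factors known for these families; of the 4 genes Psmd1 and Psmb2 were called in both fits described below, and Hspe1 and Hsph1 were not. Each is the stretch of 250 bases before the RefSeq start on build GRCr8, written along the gene. In Hspe1 (chr9:64084077-64084326, plus strand) and Hsph1 (chr12:10427118-10427367, plus strand) capitals mark the heat shock element, searched on both strands as GAA, TTC and GAA with 2 bases of any kind between them. In Psmd1 (chr9:94157721-94157970, plus strand) and Psmb2 (chr5:144254808-144255057, plus strand) they mark the core of the antioxidant response element, searched as TGACNNNGC on both strands.
Hspe1: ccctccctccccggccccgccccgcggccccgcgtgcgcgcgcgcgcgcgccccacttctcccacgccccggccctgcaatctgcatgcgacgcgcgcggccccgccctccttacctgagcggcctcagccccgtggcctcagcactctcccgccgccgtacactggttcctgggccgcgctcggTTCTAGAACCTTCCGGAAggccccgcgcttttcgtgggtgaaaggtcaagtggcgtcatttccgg
Hsph1: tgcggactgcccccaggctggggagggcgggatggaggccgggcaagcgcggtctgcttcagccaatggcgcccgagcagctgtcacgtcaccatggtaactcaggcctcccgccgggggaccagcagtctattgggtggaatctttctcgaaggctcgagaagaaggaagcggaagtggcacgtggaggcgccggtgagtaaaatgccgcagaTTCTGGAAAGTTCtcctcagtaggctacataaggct
Psmd1: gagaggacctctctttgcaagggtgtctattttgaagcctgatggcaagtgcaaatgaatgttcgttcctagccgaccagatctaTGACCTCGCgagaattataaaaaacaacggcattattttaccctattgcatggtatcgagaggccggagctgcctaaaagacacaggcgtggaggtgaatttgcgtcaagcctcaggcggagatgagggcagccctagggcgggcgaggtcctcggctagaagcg
Psmb2: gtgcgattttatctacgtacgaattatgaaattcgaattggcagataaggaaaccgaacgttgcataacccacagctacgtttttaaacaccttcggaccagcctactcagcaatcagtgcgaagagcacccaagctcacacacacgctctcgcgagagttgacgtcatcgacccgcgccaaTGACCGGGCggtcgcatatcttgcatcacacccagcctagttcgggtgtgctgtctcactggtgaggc

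Hspe1 and Hspd1, which encode HSP10, the lid of the mitochondrial chaperonin, and HSP60, its barrel, lie head to head with starts 290 bases apart, so their windows share 211 bases. Both windows hold the same pair of overlapping heat shock elements, one on each strand. In Hspe1 the pair begins 65 bases before the start, and in Hsph1 the element begins 36 bases before it. The antioxidant core begins 165 bases before the start of Psmd1 and 68 before that of Psmb2. Promoters were found for 150 of the 175 genes. The heat shock element was in 4 of 52 chaperone promoters (7.69%), 0 of 39 proteasome promoters and 0.663% of all 33469 promoters of that length. The antioxidant core was in 4 of 39 proteasome promoters (10.3%), 10 of 55 ubiquitin enzyme promoters (18.2%), 5 of 52 chaperone promoters (9.62%) and 10.1% of all promoters. It was in 6 of 50 promoters of members called higher in both fits (12%) and 4 of 23 of those called lower (17.4%). Among proteasome genes Psmd9 and Psme4 also hold it. Psmd9 was called lower after quantile normalization (log2 change -0.25) and not with the deposited values. A match describes letters in these windows and says nothing of binding.

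Calls were made with limma at an adjusted p of 0.05 (Benjamini-Hochberg over all 21070 probes), once with the deposited values and once after quantile normalization. The words rose and fell below stand for probes called in the same direction both times, in positive relative to negative arrays. This matters because the deposited values shift with brightness: the median log2 change was 0.23 over all probes with a mean log2 level of 4 and above, and 0.01 after quantile normalization.

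The arrays had medians near 0.99 on the deposited linear scale, and 21070 probes were tested. The cells' markers went with the titles in part. Calb2, the calretinin gene, had 291 and 328 in positive arrays against 138 and 129 in negative arrays. All 4 tested neuron markers had a positive log2 change, of which 2 were called in both fits. The summed level of 4 Schwann and satellite glia markers was 6.94 and 7.73 in positive arrays against 54.5 and 52.8 in negative arrays, and that of 2 central myelin markers 2.78 and 3.03 against 118 and 121. The 3 tested astrocyte markers also fell, with a sum of 123 and 135 against 241 and 242; the brightest, Slc1a3, had 121 and 134 against 149.9 and 144 (log2 change -0.20). The 3 markers of endothelium and mural cells fell too. Of 3 fibroblast markers 2 fell and Ogn rose (124 and 111 against 53.4 and 56.9), with a sum of 150 and 141 against 92.7 and 97.8. In all these lists no tested marker had a group mean below 0.456, the intensity of the filter, called the dim-probe limit below. Most glial and myelin markers were thus lower in positive arrays, by amounts that differed widely between genes, and their part in the changes below was not tested. Fewer cells of a type and less RNA per cell cannot be told apart in pooled RNA.

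With the deposited values 118 members were called, where 64.2% of all tested probes were: 90 of 179 tested members (50.3%) were called higher and 28 (15.6%) lower in positive arrays, where 40.6% and 23.6% of all tested probes were. In both fits 92 members passed (55.9% of all tested probes did): 65 (36.3%) rose and 27 (15.1%) fell, where 32.8% and 23.1% of all tested probes did. The 2 groups did not overlap for any of these 92, nor for 154 of the 179 tested members in all. A lack of overlap, where given below, therefore adds nothing to a call, and its share over all tested probes was not counted. After quantile normalization alone 65 were called higher and 44 lower (33.0% and 28.7% of all tested probes), and after cyclic loess 65 and 49 (31.7% and 32.2%). Rises were thus about as common among the members as on the whole array. Falls were less common, but not among bright probes, as given below. Neither difference was tested. The shares of 32.8% and 23.1% are the background for every count of rises and falls given below. They cover probes of all levels of brightness and were not matched to the brightness of the members. The median log2 change was 0.26 for the members and 0.11 for all tested probes, and 0.09 and 0.01 after quantile normalization. Changes were mostly small: 6 members rose and 7 fell at least 2-fold (8.21% and 7.05% of all tested probes). Dim probes of Psmd1, Cct5 and Ube2d1 are among these rises, and those of Usp25 and Usp48 among these falls. Each has a group mean below the dim-probe limit. Without limma's sharing of variance across probes, the same comparison called 54 members (41 higher, 13 lower) in place of 118. The share of all tested probes called in that test was not counted.

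**Figure D1:**
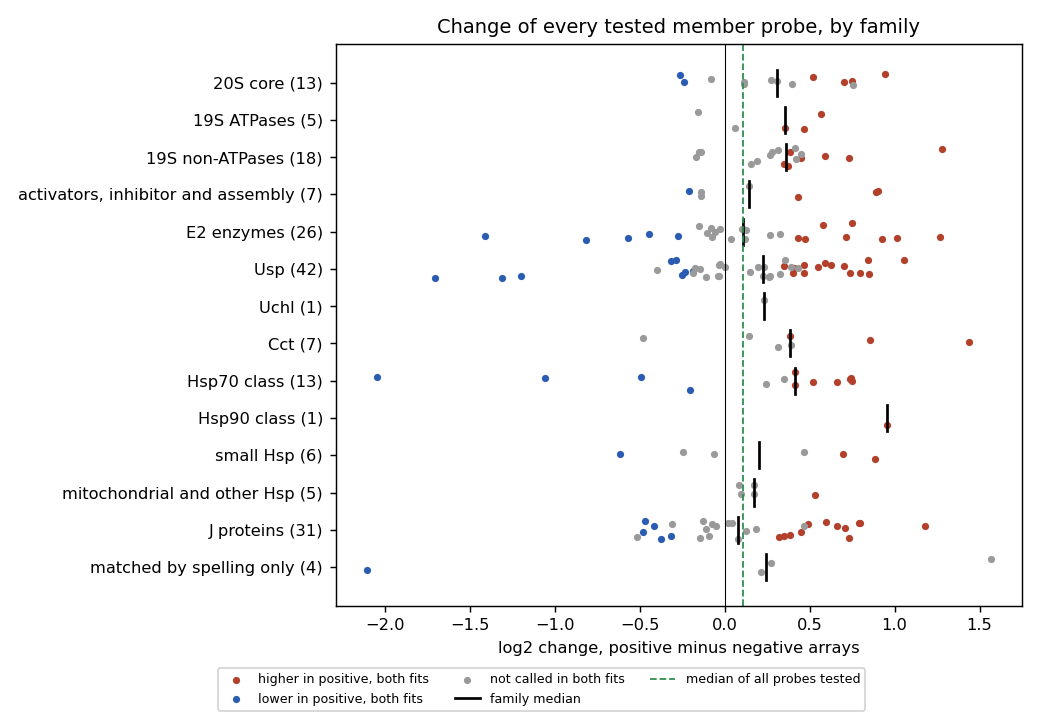
Log2 change (positive minus negative arrays, x axis) of each of the 179 tested member probes, by family on the y axis with the number of tested probes; red and blue points were called in both fits, black bars are family medians and the dashed green line is the median of all probes tested (0.11). The 19S subunits and the Cct probes lie mostly right of that line, while E2 enzymes, Usp enzymes, the Hsp70 class and J proteins extend to both sides. For 8 probes 1 group mean lies below the dim-probe limit, so their position is only approximate.

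Among bright probes the members did not stand out. Of the 76 members with a mean log2 level of 4 and above, 57.9% were called higher with the deposited values, against 54.7% of all probes as bright, and their median log2 change was 0.27 against 0.23. In both fits 32.9% of these members rose and 11.8% fell, against 31.8% and 10.8% of all probes as bright. Members between 0 and 2 on that scale had a median of 0.19 (42 probes) and those below 0 a median of 0.41 (23 probes), where all probes had 0.02 and -0.00176. In the dimmest class 39.1% of members and 25.1% of all probes were called higher; this difference was not tested.

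**Figure D2:**
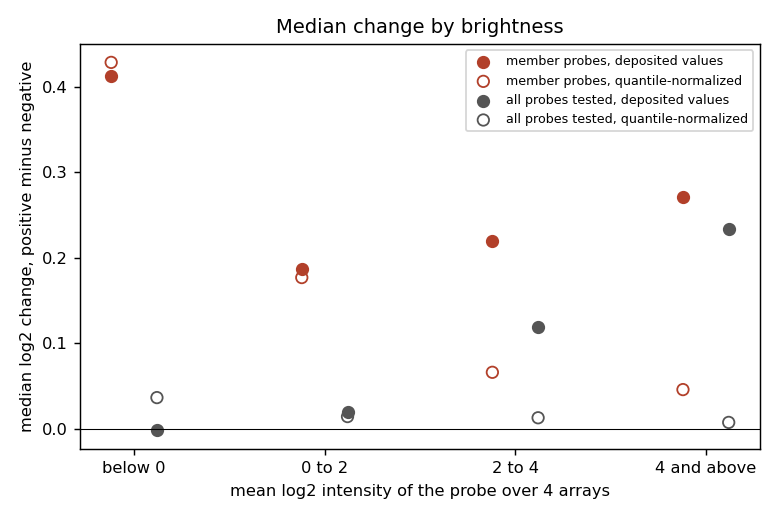
Median log2 change (positive minus negative arrays, y axis) in 4 classes of mean log2 intensity (x axis), for member probes in red and all tested probes in grey, with filled points for deposited and open points for quantile-normalized values. In the brightest class the filled points lie close together (0.27 and 0.23) and both open points lie near 0; in the dimmest class the members' median is 0.41.

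Most proteasome genes that changed were higher in positive arrays. Of 43 tested probes for its subunits, activators and assembly factors, 17 rose (39.5%) and 3 fell (6.98%), against 32.8% and 23.1% of all tested probes. These shares were not matched for brightness. With the deposited values 26 were called higher and 3 lower; quantile normalization alone called 17 higher and 8 lower, and cyclic loess 17 and 9. The median log2 change was 0.35, or 0.17 after quantile normalization. No 19S probe was called lower in both fits: of 18 probes for non-ATPase subunits 7 rose, and of 5 for the ATPases that unfold the substrate 3 rose. Quantile normalization alone, however, called 3 non-ATPase probes and 1 ATPase probe lower, and cyclic loess 3 and 2.

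Psmd1 encodes RPN2, the large scaffold of the 19S base. Its brighter probe had 17.8 and 18.7 in positive arrays against 11.0 and 11.0 in negative arrays, a log2 change of 0.73 ± 0.07 (SE, adjusted p = 9.33e-06). A second Psmd1 probe had 0.745 and 0.709 against 0.273 and 0.330, where the negative mean lies below the dim-probe limit of 0.456. Both probes rose.

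Psmd14, the subunit that cuts ubiquitin chains off as the substrate enters, had 109.6 and 112 in positive arrays against 80.3 and 90.4 in negative arrays (log2 change 0.38 ± 0.08, adjusted p = 0.00189). It did not pass after cyclic loess normalization (log2 change 0.12, adjusted p = 0.196). The ATPase gene Psmc1 had 44.6 and 47.2 against 30.4 and 31.5, a 1.48-fold difference (adjusted p = 5.94e-05), and Psmc3 1.32 and 1.37 against 0.917 and 1.04. Psmd10, which encodes the assembly chaperone gankyrin, rose with its brightest probe (5.41 and 4.997 against 3.64 and 3.27), while its 2 dimmer probes did not pass.

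Bright 19S probes differed in this. Psmd6, a subunit of the 19S lid, rose, with 43.1 and 43.3 in positive arrays against 31.9 and 31.5 in negative arrays (log2 change 0.45 ± 0.06), while Psmd2, Psmc2 and Psmd4 did not pass in both fits. Psmd2, the second large scaffold subunit, had 150.3 and 140.0 in positive arrays against 116 and 124 in negative arrays, a log2 change of 0.28 that became -0.00322 after quantile normalization. Psmc2, the brightest ATPase probe, had 192 and 207 against 188 and 195 (log2 change 0.06, adjusted p = 0.514), and was called lower after normalization (-0.22). The ubiquitin receptor gene Psmd4 had 37.4 and 35.9 against 37.7 and 43.3, and was also called lower after normalization (-0.40).

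In the 20S core 4 of 13 tested probes rose and 2 fell. Psmb2, a beta subunit with its promoter printed above, was among those that rose (1.10 and 1.25 in positive arrays against 0.762 and 0.686 in negative arrays). Psma5, an alpha ring subunit, had 100.5 and 105 in positive arrays against 64.6 and 57.7 in negative arrays (log2 change 0.75 ± 0.08, adjusted p = 2.36e-05). Psma7, another subunit of the same ring, had 14.8 and 15.6 against 18.6 and 17.9, lower in positive arrays without overlap (log2 change -0.27 ± 0.07, adjusted p = 0.00628). One of 2 Psma1 probes rose (1.29 and 1.35 against 0.634 and 0.747), and the other had 3.43 and 3.17 against 3.31 and 3.68. The beta subunit genes Psmb3 and Psmb7 had log2 changes of 0.11 each and passed in neither fit.

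The interferon-inducible variants of the core also split. Psmb8, a catalytic subunit of the immunoproteasome, had 17.9 and 16.9 in positive arrays against 12.5 and 11.8 in negative arrays (log2 change 0.52 ± 0.07, adjusted p = 0.000121). Psmb10, another catalytic subunit of the same variant, had 12.5 and 11.97 against 14.4 and 14.5 (-0.24 ± 0.07, adjusted p = 0.00922). Psme1, a subunit of the activator ring that works with it, had 30.9 and 31.8 against 33.8 and 39.0 (-0.21 ± 0.08, adjusted p = 0.0425); without positive replicate 1, positive replicate 2 or negative replicate 2 its adjusted p was 0.115, 0.0572 and 0.304. Of the 4 tested immune cell markers, Cd68 rose, Csf1r fell, Ptprc passed only with the deposited values and Itgam in neither fit. Their summed level was 81.6 and 85.3 in positive arrays against 137 and 146 in negative arrays. Most of that sum was Csf1r, with 48.0 and 52.5 against 109 and 121. Cd68, Ptprc and Itgam had positive log2 changes (0.43, 0.35 and 0.08). The part of immune cells in the values of these proteasome genes was not tested.

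Among activators and assembly factors Psmg3, an assembly chaperone of the core, had 4.55 and 4.45 in positive arrays against 2.53 and 2.29 in negative arrays (1.87-fold, adjusted p = 9.06e-06). Psme3, a nuclear activator, rose with 1 probe (2.52 and 2.47 against 1.30 and 1.40), while its brighter probe had 73.2 and 78.9 against 65.9 and 72.0 and did not pass (log2 change 0.14, adjusted p = 0.13). Psme4, which encodes the activator PA200, also rose (24.3 and 21.1 against 16.3 and 17.2). The groups of the brighter Psme3 probe did not overlap, but lay close together.

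**Figure D3:**
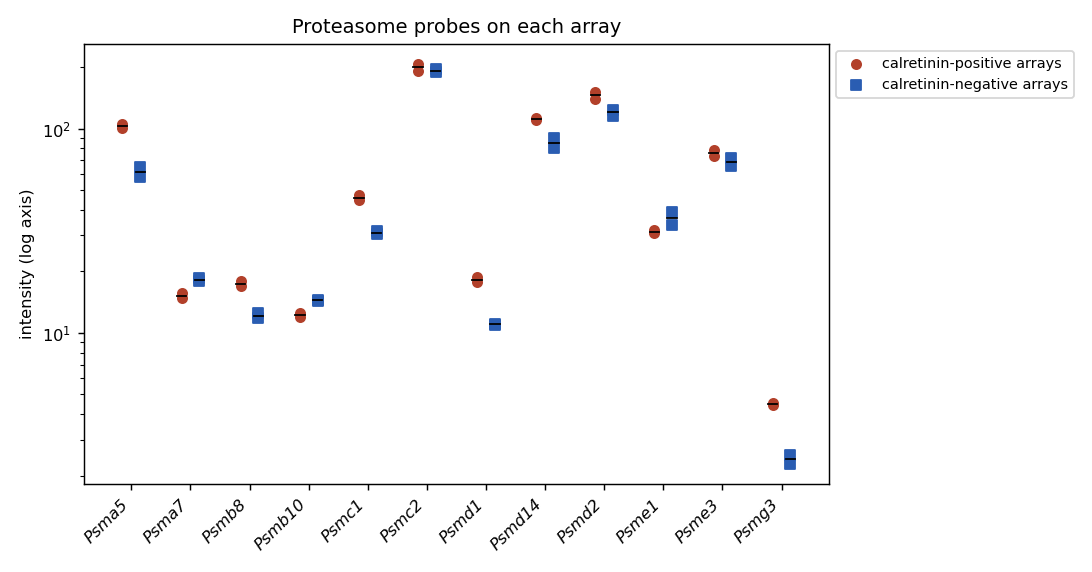
Intensity on a log axis (y) of 12 proteasome probes (x), red circles for the 2 calretinin-positive arrays and blue squares for the 2 calretinin-negative arrays, with black bars at group means; where a gene has 2 probes in the same part of the table the brighter one is drawn. Psma5, Psmc1 and Psmd1 are higher in positive arrays, Psma7 and Psmb10 are lower, and the groups overlap at Psmc2.

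The E2 enzymes, which carry ubiquitin or a related modifier to its target, moved in both directions: of 26 tested probes 8 rose (30.8%) and 5 fell (19.2%), near the shares of all probes. Quantile normalization alone called 9 lower. Ube2l6, the E2 of the ubiquitin-like modifier ISG15, had 31.5 and 30.1 in positive arrays against 12.7 and 12.9 in negative arrays. The groups lay far apart, with a log2 change of 1.27 ± 0.07 (adjusted p = 2.78e-07), 1.06 after quantile normalization. Usp18, the protease that removes ISG15, rose with its brighter probe, which had 7.74 and 7.40 against 4.76 and 4.56 (0.70 ± 0.07); its dimmer probe had 0.611 and 0.654 against 0.915 and 0.758 and did not pass. Isg15 itself had 7.62 and 7.56 against 7.07 and 7.16 (log2 change 0.09, adjusted p = 0.238), and Uba7, its E1, passed only with the deposited values (log2 change 0.28).

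Several other E2s rose by less. Ube2q1 had 27.9 and 25.5 in positive arrays against 14.0 and 14.0 in negative arrays (1.90-fold, adjusted p = 3.06e-06). Ube2f, which serves the modifier NEDD8 that switches on cullin ligases, had 67.9 and 66.9 against 40.6 and 39.5, and Ube2l3, a partner of parkin and other RING-between-RING ligases, 21.6 and 20.1 against 12.9 and 12.6. The groups of all these probes stood clear of each other. Ube2d1 was dim, with 0.927 and 0.517 against 0.437 and 0.268, the negative mean below the dim-probe limit, and lost its call without negative replicate 2 (adjusted p = 0.102).

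The E2 that fell most was Ube2n, which builds the lysine-63 chains used in signalling and repair. It had 0.731 and 0.844 in positive arrays against 2.31 and 1.88 in negative arrays (log2 change -1.41 ± 0.14, adjusted p = 1.83e-05). Its partner gene Ube2v2 had 26.8 and 24.2 against 21.0 and 21.4 with the brighter probe, called higher only with the deposited values. Ube2ql1 had 0.605 and 0.552 against 0.988 and 1.04 (-0.81 ± 0.17), and Ube2j1, an E2 of the endoplasmic reticulum, 2.68 and 3.15 against 4.58 and 4.04. In each of these the groups did not overlap.

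Of 42 tested probes for Usp deubiquitinases 14 rose (33.3%) and 8 fell (19.05%), near the shares of all probes; quantile normalization alone called 11 lower. Usp5, which recycles free ubiquitin chains, had the brightest probe of the family, with 586 and 561 in positive arrays against 399 and 384 in negative arrays (log2 change 0.55 ± 0.08, adjusted p = 0.000175). Usp9x, known for its role in neural development, had 56.9 and 59.8 against 33.4 and 31.5 with 1 probe (0.85 ± 0.07, adjusted p = 5.07e-06). The second probes of both genes had overlapping groups: that of Usp5 had 18.4 and 16.2 against 18.6 and 16.9, and that of Usp9x 17.4 and 16.4 against 17.4 and 17.1. Usp32 rose with both of its tested probes, the brighter at 40.3 and 35.6 against 23.5 and 22.1.

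Usp46, a deubiquitinase of glutamate receptors in worms and mice, had 1.26 and 0.970 in positive arrays against 0.653 and 0.434 in negative arrays (log2 change 1.05 ± 0.23, adjusted p = 0.0029). Usp14, the deubiquitinase that sits on the proteasome, had 94.3 and 94.8 against 74.6 and 69.6, called with the deposited values (0.39 ± 0.07) and not after quantile normalization (0.16, adjusted p = 0.068). Its groups did not overlap.

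Dim probes that fell were those of Usp48, with 0.280 and 0.397 in positive arrays against 0.954 and 1.24 in negative arrays, and of Usp25, with 0.293 and 0.514 against 0.938 and 0.99. The positive group mean lay below the dim-probe limit for both, so no fold or rank is given. Among brighter probes Usp54 had 22.4 and 23.7 against 51.8 and 54.2 (log2 change -1.20 ± 0.07, adjusted p = 5.05e-07), while its other 3 tested probes passed in neither fit. Usp8, Usp11, Usp12 and the brightest probe of Usp30, a deubiquitinase of the mitochondrial surface, fell by 0.19 to 0.32 on the log2 scale.

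Uchl1, the abundant neuronal deubiquitinase also used here as a neuron marker, had 202 and 190.5 in positive arrays against 165 and 169 in negative arrays. The groups did not overlap, and the log2 change of 0.23 ± 0.07 (adjusted p = 0.0192) became -0.06 after quantile normalization (adjusted p = 0.499). Uchl1 therefore passed only with the deposited values.

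**Figure D4:**
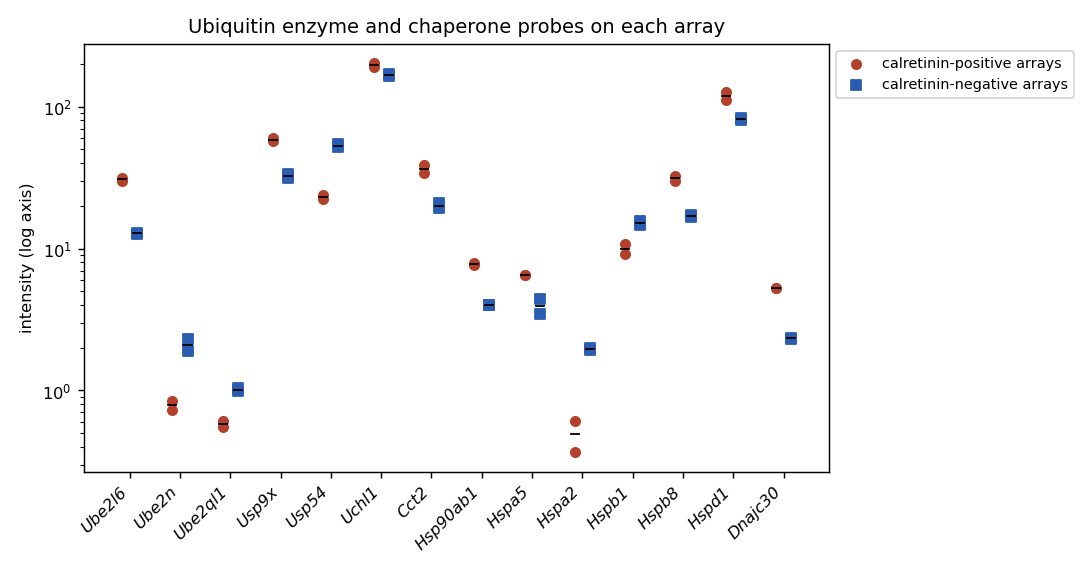
Intensity on a log axis (y) of 14 ubiquitin enzyme and chaperone probes (x), red circles for the 2 calretinin-positive arrays and blue squares for the 2 calretinin-negative arrays, with black bars at group means; where a gene has 2 probes in the same part of the table the brighter one is drawn. Ube2l6, Usp9x, Cct2, Hsp90ab1, Hspb8 and Dnajc30 are higher in positive arrays, and Ube2n, Ube2ql1, Usp54, Hspa2 and Hspb1 are lower.

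The chaperones gave 26 rises (41.3%) and 10 falls (15.9%) among 63 tested probes, against 32.8% and 23.1% of all; quantile normalization alone called 15 of them lower, and cyclic loess 19. TRiC, the ring that folds actin and tubulin, had 3 rises and no fall among 7 Cct probes. Cct2 had 38.6 and 34.2 in positive arrays against 21.0 and 19.2 in negative arrays (log2 change 0.86 ± 0.08, adjusted p = 1.28e-05). Both Cct5 probes rose, 1 with 1.81 and 1.79 against 1.35 and 1.40 and 1 with 1.04 and 1.12 against 0.390 and 0.406, the negative mean below the dim-probe limit. Cct3, the brightest, had 158 and 166 against 144 and 149 and did not pass (adjusted p = 0.103). Cct4 had 0.583 and 0.602 against 0.841 and 0.813. It was called lower with the deposited values and after cyclic loess (log2 change -0.47), but not after quantile normalization (-0.44, adjusted p = 0.055). Tcp1, the remaining subunit tested, had 339 and 327 against 252 and 259 and was called higher only with the deposited values.

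Hsp90ab1, the constitutive cytosolic HSP90 and the only member of its class with a probe read here, had 7.88 and 7.61 in positive arrays against 4.01 and 3.995 in negative arrays (1.94-fold, adjusted p = 2.02e-06). In the HSP70 class 7 of 13 tested probes rose and 4 fell. Hspa5, the chaperone BiP of the endoplasmic reticulum, had 6.56 and 6.56 against 4.43 and 3.46 (log2 change 0.74 ± 0.11), Hspa9, the mitochondrial HSP70, 1.30 and 1.504 against 0.835 and 0.838, and Hspa4, a nucleotide exchange factor, 5.56 and 4.88 against 2.87 and 3.34. In all of these the groups stood apart.

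Hsph1, another exchange factor and the brightest probe of the class, had 269.8 and 283 in positive arrays against 238 and 229 in negative arrays, a log2 change of 0.24 that became 0.02 after quantile normalization (adjusted p = 0.792). Hspa2, known for its role in sperm cells, went the other way, with 0.613 and 0.367 against 1.93 and 1.98 (log2 change -2.04 ± 0.22, adjusted p = 3.12e-05). It was the steepest fall among chaperones, but positive replicate 2 lay below the dim-probe limit. Hspa2 also lost its call in the test without limma's sharing of variance (adjusted p = 0.0713). So did Hspa4, Hspa5 and Hspa9 above (adjusted p = 0.0768, 0.0991 and 0.0558 in that test), and 21 of the 55 named probes in all. Hspa12b, a distant HSP70 known from the endothelium of other vertebrates, fell with its brightest probe (5.37 and 5.67 against 12.1 and 10.9) and with 1 dimmer probe, and rose with another dim probe. The 3 tested markers of endothelium and mural cells fell in the same arrays, with summed levels of 6.43 and 5.78 against 19.4 and 19.8; their part in the Hspa12b values was not tested.

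Small heat shock proteins hold unfolded proteins without using ATP, and Hspb8 and Hspb1, both known for motor neuropathy in humans, moved in opposite directions. Hspb8, which works with BAG3, rose with both probes, the brighter at 32.6 and 30.0 in positive arrays against 16.7 and 17.1 in negative arrays (log2 change 0.88 ± 0.07, adjusted p = 3.95e-06). Hspb1, the HSP27 of sensory neurons and other cells, fell to 9.13 and 10.7 in positive arrays, against 15.7 and 14.7 in negative arrays (-0.62 ± 0.09, adjusted p = 0.000174). Hspb2, the brightest, had 57.4 and 55.2 against 57.9 and 59.8. It was called lower after quantile normalization (-0.35) and cyclic loess (-0.31), and not with the deposited values. Bag3 rose as well, with 108 and 105 against 74.0 and 73.8.

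The head-to-head pair Hspd1 and Hspe1, whose shared promoter is printed above, gave unequal values. The brighter Hspd1 probe had 111 and 128 in positive arrays against 81.2 and 83.2 in negative arrays (log2 change 0.53 ± 0.08, adjusted p = 0.000335), and a dim one 0.983 and 0.897 against 0.866 and 0.909. Hspe1 had 47.7 and 40.5 against 40.9 and 37.2, groups that overlapped (0.17 ± 0.09, adjusted p = 0.124). Whether these 2 changes differ was not tested.

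J proteins bring clients to HSP70 and stimulate its ATPase; of their 31 tested probes 12 rose (38.7%) and 5 fell (16.1%), and quantile normalization alone called 9 lower. Dnajc30, a J protein of mitochondria, had 5.27 and 5.28 in positive arrays against 2.35 and 2.30 in negative arrays (2.27-fold, adjusted p = 7.97e-07). Dnajc2, which binds at the ribosome, had the brightest probe, with 135 and 148 against 89.6 and 98.1 (1.51-fold). Dnajb1, the heat-inducible partner of HSP70, had 14.96 and 14.8 against 11.6 and 11.8 (log2 change 0.35 ± 0.06). Dnajc5, the cysteine string protein of synaptic vesicles, had 73.9 and 71.9 against 63.2 and 65.4, a log2 change of 0.18 that became -0.10 after quantile normalization.

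J proteins known from the endoplasmic reticulum gave mixed values. Dnajc3 rose with both probes, the brighter at 22.1 and 23.03 in positive arrays against 14.98 and 13.6 in negative arrays. Its dimmer probe had 0.577 and 0.764 against 0.423 and 0.390, the negative mean below the dim-probe limit. Dnajb9 rose with its probe (3.68 and 3.66 against 2.98 and 2.65). Dnajb11 was divided: 1 probe had 24.8 and 25.4 against 14.8 and 14.1 (log2 change 0.80 ± 0.07), and the other 1.91 and 2.01 against 2.71 and 2.77 (-0.48 ± 0.08). Dnajc1 had 4.14 and 3.74 against 3.59 and 3.87 and passed in neither fit. Among the falls, Dnajc25 had 2.78 and 2.90 against 3.83 and 4.04, and Dnajb2, an ubiquitin-binding J protein of neurons, 35.1 and 35.2 against 45.8 and 48.1 (-0.42 ± 0.07).

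Probes of the same gene did not always go together. Of 29 genes with several tested probes, all probes were called alike in 6, some in 16 and none in 4. Among these 6, Psmd1, Cct5 and Dnajc3 each have 1 probe with a negative mean below the dim-probe limit. In 3 genes, Dnajb11, Hspa12b and Hspa13, probes were called in opposite directions. The sources used here do not say which transcripts the probes of a gene detect.

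Genes that work with these families but fall outside the spelling rule were counted by the brightest tested probe of each gene. Of 117 tested, 50 rose and 12 fell, beside 32.8% and 23.1% of all tested probes. Those shares count every probe, so counts of genes and shares of probes are not strictly alike here and in the lists below. Quantile normalization alone called 50 higher and 20 lower. The genes had a median log2 change of 0.29 (0.16 after quantile normalization). Of 20 co-chaperone genes of HSP70 and HSP90, 13 rose and 1 fell, with a median log2 change of 0.53 (0.31 after quantile normalization). Fkbp5, an HSP90 partner that is induced by glucocorticoids, had 68.2 and 67.1 in positive arrays against 19.7 and 19.03 in negative arrays (3.50-fold, adjusted p = 3.77e-08). Stip1, which bridges HSP70 and HSP90, had 1.47 and 1.24 against 0.422 and 0.461, the negative mean below the dim-probe limit, and Sgta fell (7.36 and 7.53 against 10.4 and 9.13).

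Of 35 E3 ligase and cullin genes 15 rose and 3 fell. Arih1 had 5.16 and 5.16 in positive arrays against 1.09 and 1.05 in negative arrays (4.81-fold), Cul4a 13.01 and 14.1 against 7.13 and 6.85, and Smurf2, a ligase of the TGF-beta pathway, fell (2.64 and 2.67 against 4.31 and 4.43). Of 5 ubiquitin precursor and E1 genes 2 rose, Uba1, the main E1 (38.0 and 44.95 against 29.5 and 29.0), and Uba2. Adrm1, the 19S ubiquitin receptor RPN13, was at 1.92 and 1.46 against 0.320 and 0.203, the negative mean below the dim-probe limit.

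Of 9 other deubiquitinases 3 rose and 2 fell, Cops5 at 83.5 and 88.3 in positive arrays against 46.3 and 42.2 in negative arrays and Atxn3 at 8.396 and 8.75 against 12.01 and 11.4. Of 11 genes of the p97 unfoldase and shuttle factors 5 rose and 1 fell; Vcp, p97 itself, had 31.6 and 33.0 against 32.6 and 31.4. Of 14 folding enzymes of the endoplasmic reticulum 5 rose and 1 fell, with Manf at 6.57 and 6.30 against 3.67 and 3.54. Of 10 ubiquitin-like modifier genes 3 rose and 2 fell, and of 5 prefoldin and TRiC genes 1 rose.

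Of the 8 transcription factor genes tested 3 rose and 2 fell. Hsf2, a heat shock factor, had 9.86 and 10.05 in positive arrays against 7.02 and 6.61 in negative arrays, and Atf4, a factor of the unfolded protein response, 45.7 and 41.7 against 30.4 and 31.3. Hsf1, the main heat shock factor, was dim, at 0.746 and 0.830 against 1.06 and 0.881 (adjusted p = 0.145). Nfe2l1, the factor known to drive proteasome genes, had 28.3 and 28.4 against 23.5 and 24.0, called only with the deposited values.

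**Figure D5:**
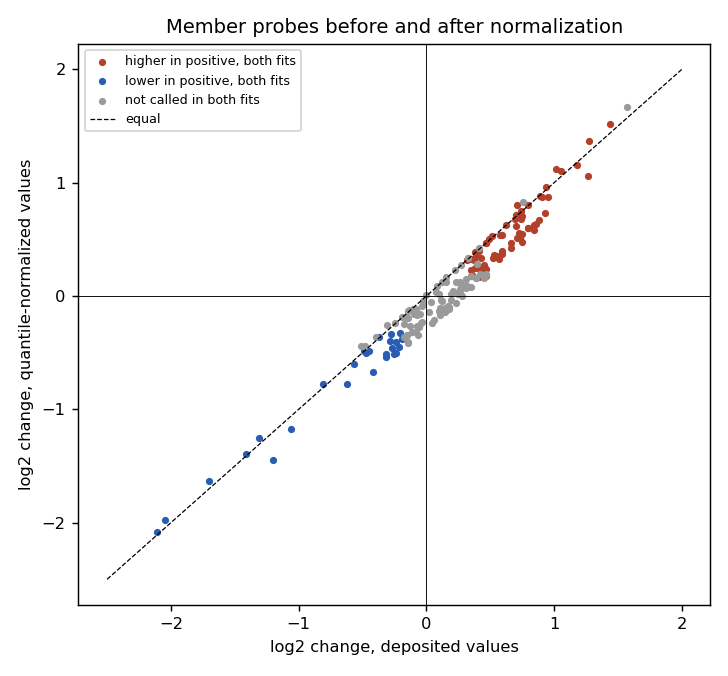
Log2 change (positive minus negative arrays) of the 179 tested member probes with deposited values (x axis) against quantile-normalized values (y axis), coloured by whether both fits called them, with the dashed line at equal values. Most points lie on or below the line. Grey points include the 26 members called with the deposited values and not after quantile normalization, 25 of them higher in positive arrays. They also include the 17 called lower after quantile normalization and not with the deposited values.

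Some members matched the spelling rule without belonging to the machinery. Usp6nl, a GTPase-activating protein, had 0.566 and 0.614 in positive arrays against 2.52 and 2.55 in negative arrays (log2 change -2.11 ± 0.12, adjusted p = 4.97e-07), the steepest fall of all tested members. A second Usp6nl probe had 0.410 and 3.42 against 0.411 and 0.388, so 1 positive array alone was high. Psmc3ip, a recombination factor, passed only with the deposited values (log2 change 0.21), Psme3ip1 passed in neither fit (0.27, adjusted p = 0.066), and Hspg2, which encodes perlecan, was below the filter on dim probes.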

How the data were processed

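The authors deposited 1 table of linear intensity values for 35126 probes on 4 arrays; for this intensity the scanner, background correction and normalization were not given in the sources used. Array medians lay between 0.990 and 0.992, which leaves few units of signal for the dimmer probes, and 9 probes were missing on every array. Genes came from the platform annotation. Names of the late part of the table were read 5 rows later: log2 changes of probe pairs of the same gene from the early and late parts then correlated at r = 0.474 (356 pairs), against 0.067 with no move. All 252 member gene IDs were in the RefSeq gene table.

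Values at or below 0 or missing were raised to the percentile 1 of an array's positive values and log2 was taken. Probes with a mean log2 value at or above percentile 40 (an intensity of 0.456, the dim-probe limit) entered a two-sided limma fit (version 3.58.1, R version 4.3.3, lmFit and eBayes with a trend), positive minus negative arrays, with Benjamini-Hochberg adjustment over 21070 probes and a threshold of 0.05. The fit was tested on simulated data. Nothing says whether the 2 arrays of a group came from separate animals, so p-values measure only the spread between these arrays, and an exact permutation test of 2 against 2 arrays cannot go below p = 0.333. No fold of a single probe is given where a group mean lies below the dim-probe limit, though such probes enter the counts of 2-fold changes.

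Members and gene lists were chosen with earlier results of these data known. Named in each family were the 2 steepest rises and 2 steepest falls called in both fits without overlap, the brightest member and a list of well-known genes. Of that list Psmb5, Ube2d3, Hspa1a, Hspa1b, Hsp90aa1, Hsp90b1 and Dnaja1 are not analysed here; other genes in the text were picked after their values were seen. Arrays with the same replicate number did not deviate together (r = 0.000316 between deviations over 21070 probes). This cannot tell whether they shared animals or a run. Alternatives covered normalization, the filter, low values, the variance prior, the test, the threshold, a replicate block, left-out arrays and probe names.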

Additional observations from a re-analysis of the deposited data

How the results depend on the processing

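Over 17 alternatives, 875 values of 55 named probes were compared with those reported: 792 kept direction and side of the threshold, 54 lost and 6 gained a call, and 23 changed sign. Quantile and cyclic loess normalization raised the members called lower to 44 and 49 from 28, and gave a median log2 change of 0.0880 and 0.0832 in place of 0.26. In these fits signs turned for Dnajc5 (-0.0976 and -0.0683), Psmc2 (-0.216 and -0.233), Psmd2 (-0.00322 and -0.00106) and Uchl1 (-0.0572 and -0.0594), and with loess for Hsph1 (-0.0570). They also turned for probes not called with the deposited values or in these fits: Cct3 (-0.107 and -0.138), Hspe1 (-0.0856 and -0.0561), Psmb3 (-0.0370 and -0.156) and the brighter Psme3 probe (-0.139 and -0.109). The test without moderation called 54 members (41 higher, 13 lower), 50 genes in place of 104 and 47 other pathway genes in place of 80. With names of the early part only, fewer probes entered: 56 members were called (42 higher, 14 lower), 53 genes and 47 other pathway genes, with a median of 0.155. With all names read as deposited the median was 0.143, and signs turned for Psmb8 (-2.52), Psmg3 (-2.65), Usp14 (-0.358), Usp46 (-2.22) and Usp48 (0.438), since other values are then read for them.

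Leaving out 1 array gave 105 to 112 members called (81 to 84 higher, 24 to 30 lower), 94 to 102 genes, 74 to 78 other pathway genes and a median of 0.221 to 0.253; the single array left in that group is taken to vary as the other group does. Dnajc5 lost its call without any 1 of the 4 arrays, Uchl1 without positive replicate 1 or either negative array, Psmd2 without replicate 1 of either group and Hsph1 without replicate 2 of either group. The uncalled Usp9x probe ranged from -0.0769 to 0.0126, and Hspe1 gained a call without positive replicate 2 (adjusted p = 0.0155, limma). The replicate block called 120 members (92 higher, 28 lower) and changed no call of the named probes. The share of all tested probes called was not counted for the test without moderation, the replicate block or the fits without 1 array. With 2 arrays a group, small changes of dim probes were not resolved. The cause of the other differences was not tested.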
